A study of Mus musculus with 14 samples.

Results

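The authors' annotation of macrophage transcripts holds, beside genes, 1107 stretches of the genome called on RNA signal with SICER, a caller of broad enriched domains, and 441 of these non-gene regions overlap the span of an annotated gene by at least 1 base. A gene span runs from the first to the last exon base on 1 chromosome and strand, and overlap on either strand counted. Of the 441 regions, 208 have a name that ends in TSS (the start of the gene in the name) and 233 a name that ends in TES (its end). The other 666 regions lie outside gene spans, 203 of them no more than 5 kb from a gene's start, 176 up to 20 kb beyond a gene's end and 287 farther away. The source field of the annotation names a comparison of hairpin with LMP vector libraries of untreated cells, so the regions were chosen on a knockdown comparison and the direction of their change is not independent evidence.

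The macrophages were primary cells grown from FVB/Hsd mouse bone marrow in L929-conditioned medium, infected with retroviruses, selected with puromycin and used on the 7th day of differentiation. The 4 libraries are ribosomal RNA-depleted total RNA of untreated cells: 2 with the scrambled hairpin (scrambled 1 and 2) and 1 each with hairpins sh1137 and sh830 against Wdr82. All 4 carried a retroviral hairpin and had been selected with puromycin. The labels do not say whether the 2 libraries of a group came from separate mice. The p-values therefore measure at most the spread between these libraries, and the hairpin spread includes a difference of hairpin. The fit below also takes out the part of this spread that goes with the intron share of a library. The other 10 of the 14 samples were not analysed here. The study asks how transcription outside genes is held back in macrophages, and the comparison here is that of Wdr82 hairpin with scrambled libraries.

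WDR82 is a small adaptor protein that binds the tail of RNA polymerase II early in transcription. It belongs to SET1 complexes, which methylate histone H3, and to a protein phosphatase complex (PTW/PP1), and it acts with the zinc finger protein ZC3H4 in the early termination of unproductive transcripts. Mammalian promoters commonly fire in both directions, and the upstream antisense RNA is normally short and quickly degraded, while past the poly(A) site the polymerase runs on before it terminates. A region over a gene start or a gene end therefore lies where RNA outside the gene meets RNA of the gene.

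Gene exon counts were 34787556 to 43372731 a library, and the 441 regions held 131708 counts in scrambled 1, 79188 in scrambled 2, 389341 in the sh1137 library and 171180 in the sh830 library. Introns took 40.4% and 44.2% of exon plus intron counts in scrambled 1 and sh1137, and 14.6% and 15.2% in scrambled 2 and sh830. This split crosses the groups and was a term of the fit, which then has 1 residual degree of freedom; "rose" and "fell" below mean an adjusted p under 0.05 in that fit (quasi-likelihood test of edgeR, adjusted by Benjamini and Hochberg's method over all 14954 features tested). Wdr82 itself was at 100 and 144 counts scaled per 1e6 gene exon counts (CPM) in the scrambled libraries and at 25.1 and 40.7 with sh1137 and sh830, a log2 change of -1.91 ± 0.094 (SE; adjusted p = 0.0022). The 12 macrophage markers summed to between 10240 and 17040 CPM in each library. Of these, 0 rose and 2 fell, against 6.06% and 7.79% of all genes, and their median log2 change was -0.07. Of 10 neutrophil markers 1 (Mmp8) rose; their sum went from 55.9 and 35.4 CPM to 197 and 112, while their median log2 change was -0.26. Of 8 tested stromal markers 4 rose and their sum went from 11.8 and 51.3 CPM to 50.8 and 176. T and NK cell, B cell, dendritic, mast cell and erythroid lists summed to at most 21.8 CPM in every library, with Gzmb, Pax5, Blk, Fcer1a, Ms4a2 and Hbb-b1 among the genes at 0. The part of these markers in the results below was not tested. In bulk RNA, fewer cells of a type and less RNA per cell cannot be told apart.

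Most of the 441 regions touch their gene only at the edge. Their median length was 6000 bases (1000 to 98000), with a median of 3.40% of bases inside a gene span and 2.56% in exons. An exon was touched by 405 of them and by 36 not. Some overlaps are with gene spans that exist only on paper: 45 of the 21855 spans join copies of 1 gene over a gap of more than 1 Mb, such as Mir684-1, whose span covers 40.5 Mb of chromosome 11, and Snora19, at 35.8 Mb of chromosome 19. Of the 441 regions 29 overlap no gene other than such a span, 13 of them only Mir684-1 and 10 only Snora19. The main counts are also given without these 29. Among the other 412, 170 covered the start of the gene in their name and extended a median of 5918 bases upstream, and 195 covered its end and extended a median of 4800 bases downstream. A further 14 covered the whole gene, 18 lay inside its span, 7 overlapped another gene only, and for 8 the gene in the name could not be placed beside them. All regions over a start had TSS names and all over an end had TES names.

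The sequence just upstream of the start is shown for 6 genes. By the authors' annotation their starts lie inside the regions over a start that rose most among those named below. The first RefSeq start of each gene was taken, and whether it is the annotated start was not checked. Each line gives the 250 bases before the start in the RefSeq table (GRCm38.p6, strand of the gene, 5′ to 3′); the regions themselves are in mm9, so the coordinates cannot be set against each other. Capitals mark matches on either strand to TATAAA (the TATA box), GAGGAA (the PU box, bound by the macrophage factor PU.1), AATAAA (the poly(A) signal) or GTAAGT (a 5′ splice site); matches may overlap.
Fcgr2b (chr1:170976072-170976321, minus strand): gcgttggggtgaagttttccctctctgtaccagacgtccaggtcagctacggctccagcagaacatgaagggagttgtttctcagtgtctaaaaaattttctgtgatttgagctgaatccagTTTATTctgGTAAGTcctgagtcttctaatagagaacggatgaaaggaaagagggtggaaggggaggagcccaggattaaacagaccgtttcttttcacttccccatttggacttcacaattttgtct
Unc93a (chr17:13131792-13132041, minus strand): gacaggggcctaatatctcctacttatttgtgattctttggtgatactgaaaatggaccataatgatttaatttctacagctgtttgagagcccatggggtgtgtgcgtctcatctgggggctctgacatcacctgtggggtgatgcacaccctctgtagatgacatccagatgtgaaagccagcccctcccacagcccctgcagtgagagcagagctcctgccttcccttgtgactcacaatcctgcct
Fcrla (chr1:170927584-170927833, minus strand): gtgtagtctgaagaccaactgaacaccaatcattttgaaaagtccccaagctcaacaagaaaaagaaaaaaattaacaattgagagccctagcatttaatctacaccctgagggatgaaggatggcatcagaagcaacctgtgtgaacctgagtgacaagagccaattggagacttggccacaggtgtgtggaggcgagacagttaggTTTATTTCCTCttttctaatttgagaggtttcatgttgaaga
Asgr2 (chr11:70092394-70092643, plus strand): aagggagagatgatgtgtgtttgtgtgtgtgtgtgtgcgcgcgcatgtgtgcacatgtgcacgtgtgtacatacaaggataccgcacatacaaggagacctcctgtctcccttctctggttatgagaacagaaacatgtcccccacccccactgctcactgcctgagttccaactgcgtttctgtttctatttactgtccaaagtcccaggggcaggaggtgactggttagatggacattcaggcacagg
Cd300c (chr11:114960508-114960757, minus strand): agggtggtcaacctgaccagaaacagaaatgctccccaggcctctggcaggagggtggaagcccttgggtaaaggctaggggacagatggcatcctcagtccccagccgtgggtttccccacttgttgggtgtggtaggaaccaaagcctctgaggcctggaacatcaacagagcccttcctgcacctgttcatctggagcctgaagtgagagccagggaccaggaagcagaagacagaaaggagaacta
Mpeg1 (chr19:12460520-12460769, plus strand): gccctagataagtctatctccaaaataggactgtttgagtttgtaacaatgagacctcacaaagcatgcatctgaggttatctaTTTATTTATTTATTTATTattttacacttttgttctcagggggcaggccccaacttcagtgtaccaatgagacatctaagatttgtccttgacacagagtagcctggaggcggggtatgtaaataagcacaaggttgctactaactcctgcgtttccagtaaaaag

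Of the 181 genes whose start lay in a tested region, 148 matched the RefSeq table by identifier, with 188 promoters. The upstream 250 bases of these held a median of 13.5 CG pairs and 60.2% G and C, against 6 CG pairs and 52.4% over all 32851 promoters of the table. A PU box on either strand was present in 29.3% of them and in 23.2% of all promoters, and a TATA box in 3.72% against 12.4%. The poly(A) signal was present in 10.6% against 18.1%, and the 5′ splice site in 2.13% against 6.31%. All entries of a gene were taken, and whether each lies in the region was not checked. Genes whose start lay in a region that rose had 114 promoters (94 genes), and those whose region did not pass had 74 (54 genes). The medians of these 114 and 74 were 12 and 16.5 CG pairs, with a PU box in 30.7% and 27.0%. The antisense poly(A) signal would lie on RNA running away from the gene. It was found in 7.89% of the 114 and 4.05% of the 74, against 9.49% of all promoters. These are matches of letters and say nothing of binding or use.

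How the counts were made bears on every value that follows, because reads that lie on both a gene exon and a region appear in neither count. All 20 genes whose exon bases lie wholly inside regions had 0 exon counts in all 4 libraries, among them the chemokine gene Ccl3, the platelet factor gene Pf4, the interferon-induced Ifitm3 and the deubiquitinase gene Usp35. Of the 419 genes covered only in part, 1 had 0 counts, and of all 21761 genes 4249 did. The reverse held for the regions: the 2 without a base outside exons, Galnt6_TES and Igf1r_TES, had 0 counts, against 3 of the other 439. From this it is inferred that counts of a region come from its bases outside annotated exons, and that exon counts of a covered gene lack the reads on its covered bases. How far this lowers the counts of a partly covered gene was not measured. Genes with over 80% of their exon bases in regions also had few counts: Ptprv, a receptor-type tyrosine phosphatase gene at 99.1%, had 2, 2, 11 and 8 in scrambled 1, scrambled 2, sh1137 and sh830. Whether the counting used strand is not given in the sources used here, and the regions carry no strand, so sense and antisense RNA in a region cannot be told apart.

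**Figure D1:**
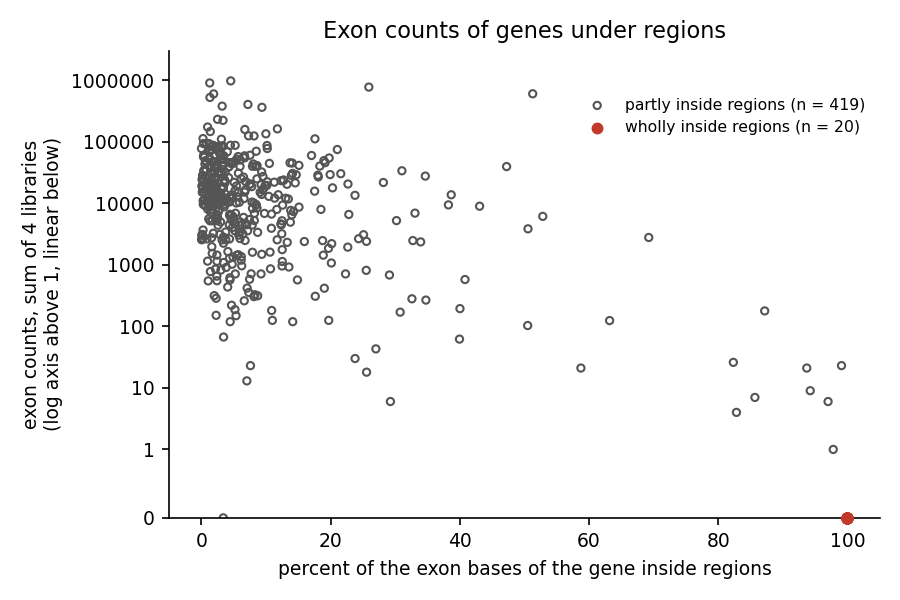
Exon counts of each of the 439 genes touched by regions (vertical, sum of 4 libraries, log axis above 1 and linear below) against the percent of its exon bases inside regions (horizontal). The 20 genes wholly inside regions sit at 0 counts, and the partly covered genes at the right end have far fewer counts than those at the left.

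Of the 441 regions, 428 passed the filter on low counts. With the hairpins, 214 rose and 0 fell (50.0% of those tested), against 9.53% of all genes and regions tested that rose and 7.23% that fell. At an unadjusted p under 0.05 in that fit 307 were higher and 0 lower, and DESeq2 with the same terms gave 207 rises and 0 falls. The median log2 change was 1.09, with quartiles of 0.72 and 1.83, and 417 values were above 0 and 11 below, none of the latter passing; the median over all features was 0.02 and over genes -0.01. Both hairpin libraries were above both scrambled libraries for 263 of the 428, against 19.1% of all features. The 402 tested regions that overlap an ordinary gene span gave 200 rises, 289 higher values with an unadjusted p under 0.05 (0 lower), 248 with the groups apart and a median of 1.07, and the 26 on the joined spans 14 rises and 1.29. With the group term alone, without the term for intron share, 0 of the 428 passed in edgeR (at an unadjusted p under 0.05, 143 were higher and 0 lower, against 5.72% of all features higher), and 88 passed in DESeq2. The median was 1.13 in that fit, and it depended on the library: 1.63 without scrambled 1, 0.96 without scrambled 2, 0.53 without sh1137 and 1.61 without sh830, with 65, 8, 34 and 111 rises.

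Regions with TSS names had a higher median change than those with TES names in both pairs of a hairpin with a scrambled library. Of 202 tested regions with TSS names 128 rose, with a median log2 change of 1.44, and of 226 with TES names 86 rose, with a median of 0.88; without the 29 regions on joined spans only, 122 of 189 and 78 of 213 rose. In the libraries with a high intron share (sh1137 over scrambled 1) the medians were 1.68 for TSS names and 1.07 for TES names, and in those with a low share (sh830 over scrambled 2) they were 1.18 and 0.69. Scrambled 1 over scrambled 2 gave 0.46 and 0.75, so for TES names the scrambled libraries differed by as much as sh830 did from scrambled 2. By position, 109 of 167 regions over a start rose (median 1.46), 66 of 192 over an end (0.84), 9 of 14 over a whole gene (1.24) and 8 of 16 inside a span (1.13). For each count in TES-named regions, TSS-named ones held 0.613 and 0.772 in the scrambled libraries, and 0.940 with sh1137 and 0.936 with sh830. The ratio did not overlap between the groups, and an exact two-sided permutation test gave p = 0.333, the smallest that 2 against 2 libraries allow.

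As a share of gene exon plus region counts, TSS-named regions went from 0.102 ± 0.031% to 0.359 ± 0.240% and TES-named regions from 0.153 ± 0.069% to 0.382 ± 0.255% (mean ± SD, n = 2 each). The TSS share did not overlap between the groups (0.124 and 0.0806% against 0.529 and 0.189%; exact two-sided permutation p = 0.333). The TES share did, since scrambled 1 at 0.2024% stood just above sh830 at 0.2021% (exact permutation p = 0.667). In scrambled 1 a single region, Mthfs_TES, held 12.1% of the counts of all 441. For the 441 together, the share was 0.326 and 0.185% in the scrambled libraries and 1.09 and 0.391% with the hairpins. The 95% Wilson interval of the sh1137 share was 1.088 to 1.095%, and such intervals cover counting error only.

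As a whole, regions outside genes had a higher median than those on genes. Of the 642 tested outside genes, 370 rose, with a median log2 change of 1.61, against 1.09 on genes. The medians were 1.51 within 5 kb of a gene start, 1.21 past a gene end and 2.09 for distal regions. On genes, regions over a start had 1.46 and TSS-named ones 1.44, so the order did not hold between all classes. Close to the border that defines the class the values were alike: the 82 tested regions with at most 100 bases of overlap had a median of 1.13 and 42 rises, and the 84 outside genes but within 100 bases of one had 1.38 and 46 rises. The differences between these classes were not tested, and the classes also differed in their level in the scrambled libraries, with medians of 0.365 CPM per kb outside exons for TSS names, 0.514 for TES names and 0.160 for distal regions. Over genes, the 107 regions with the lowest scrambled level had a median log2 change of 2.19 (72 rose) and the 107 with the highest 0.80 (57 rose); the scrambled level is itself part of the change, so this is a description only. By length, 76 of 107 rose with a median of 1.47 among the longest (11000 to 98000 bases), against 44 of 107 and 1.01 among the shortest. The 107 with the least exon sequence had a median of 1.34 and the 107 with the most 0.99.

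**Figure D2:**
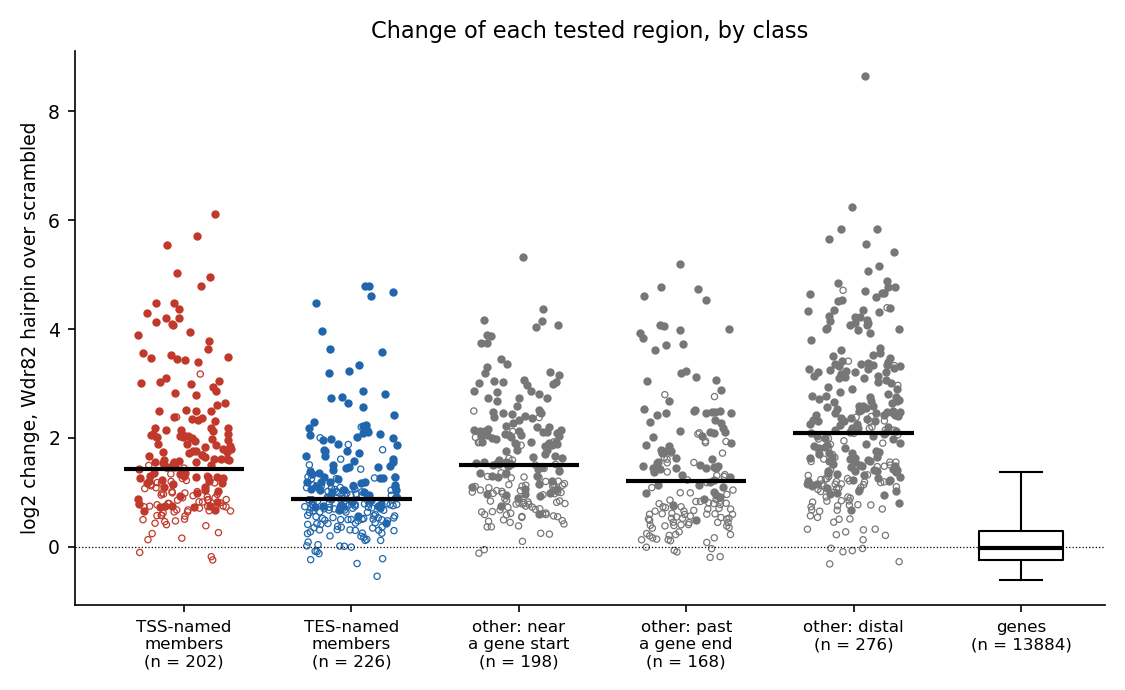
Log2 change, Wdr82 hairpin over scrambled (vertical), of every tested region by class; filled points passed the adjusted p of 0.05, open points did not, and bars are medians. The box for genes spans the quartiles with whiskers at the 5th and 95th percentiles. Regions with TSS names have a median of 1.44, those with TES names 0.88 and distal regions 2.09, while the gene median is -0.01.

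The largest rise was over the start of Fcgr2b, which encodes the inhibitory receptor for IgG. Its region runs 15820 bases upstream (mm9 chr1:172906500-172922499) and had 13 and 17 counts in scrambled 1 and 2 against 1013 with sh1137 and 1056 with sh830. This is 0.372 ± 0.077 CPM against 26.0 ± 1.42 CPM (SD, n = 2 each), a log2 change of 6.12 ± 0.22 (SE; adjusted p = 0.0020), and the hairpin libraries were close to each other. Its exons rose far less, by 0.99. Gm11428_TSS (chr11:83511000-83517499), which overlaps only the joined Mir684-1 span, had 4 and 4 counts against 262 and 165, and Unc93a_TSS (chr17:13324500-13337999) had 2 and 4 against 212 and 91. Fcrla_TSS, over an Fc receptor-like gene, had 4 and 1 counts against 115 and 46 (log2 change 5.03 ± 0.54). The Fcrla exons rose too, by 7.19 (0 and 1 counts against 107 and 73), and the Unc93a exons rose by 3.79. Asgr2_TSS, over a subunit of the asialoglycoprotein receptor, had 9 and 4 against 288 and 113, and Cd300c_TSS, over a CD300 family receptor, 19 and 25 against 904 and 396. The regions of largest rise were taken only where the hairpin and scrambled libraries did not overlap.

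Over Mpeg1, which encodes the pore-forming macrophage protein perforin-2, the region and the gene went in opposite directions. Mpeg1_TSS (chr19:12529000-12535499, 6269 bases upstream) had 172 and 164 scrambled counts, 5573 for sh1137 and 2406 for sh830, a log2 change of 4.48 ± 0.33 (adjusted p = 0.0053). The exons of Mpeg1 were at 5252 and 5238 CPM in the scrambled libraries and at 1664 and 2631 with the hairpins, and fell by 1.33 (adjusted p = 0.018). Plxna1_TSS, over the start of a semaphorin receptor gene, had 20 and 10 counts against 348 and 293 (4.47 ± 0.31), while the Plxna1 exons had a log2 change of 0.34 that did not pass. Pid1_TSS covers 84500 bases (chr1:84281500-84365999), 28310 of them upstream and the rest inside the gene; it had 1997 and 462 counts against 23343 and 4407 (3.44 ± 0.15, adjusted p = 0.0020). Vsig4_TSS, over the gene of a complement receptor of tissue macrophages, had 212 and 13 counts against 2889 and 333 (4.07 ± 0.19). The Vsig4 introns rose by 3.25 and its exons by 2.97, though the groups overlapped over the exons. The Pid1 exons had a log2 change of -0.75 that did not pass. The Pid1 and Vsig4 regions differed within each group as the intron share did.

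Gene ends had their own set. Of the 8 largest rises with TES names, 3 lay on joined spans only: Fgfr1op_TES (5 and 2 counts in scrambled 1 and 2, 144 and 51 with sh1137 and sh830), Ch25h_TES_2 (8 and 0, 128 and 63) and Ch25h_TES (8 and 3, 192 and 83). The last of these are named for the cholesterol 25-hydroxylase gene, which they do not overlap. Cdkn2d_TES (chr9:123839500-123854999) had 55 and 27 counts against 1602 and 486 (4.61 ± 0.26), and lies beside one of 2 places the annotation gives for Cdkn2d on chromosome 9, so its host exon counts mix both. Gm11468_TES, inside the span of a noncoding gene model, had 10 and 3 counts against 123 and 160. Fcrlb_TES, past a second Fc receptor-like gene, had 15 and 12 against 275 and 154 (3.97 ± 0.37), and Lrrc27_TES 74 and 60 against 1203 and 535 (3.63 ± 0.30). Their genes rose too, Fcrlb by 4.82 and Lrrc27 by 2.99 over exons.

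**Figure D3:**
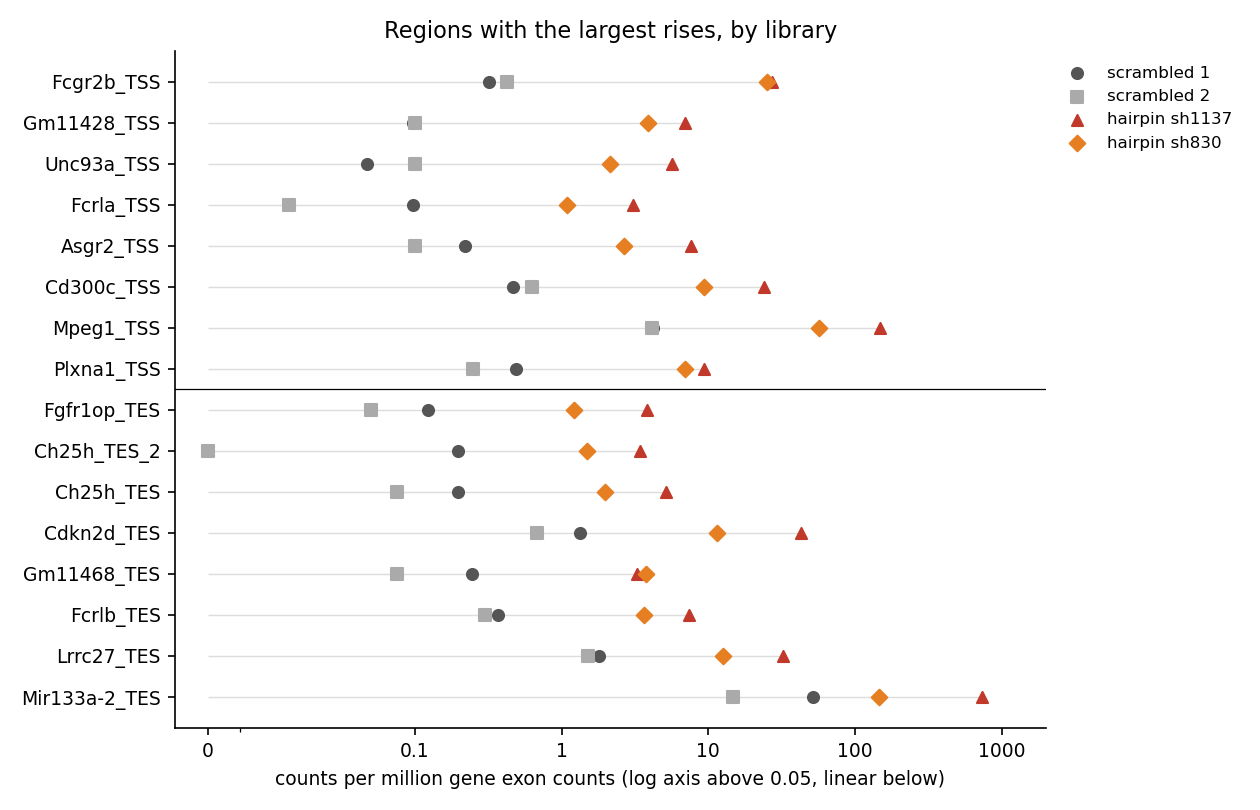
CPM (horizontal, log above 0.05 and linear below) of the 8 regions with TSS names (above the line) and the 8 with TES names (below it) that rose most, 1 mark for each library. Regions were taken only where the groups did not overlap, so in every row both hairpin libraries lie to the right of both scrambled ones; Mir133a-2_TES reaches 736 CPM with sh1137 and Ch25h_TES_2 is at 0 in scrambled 2.

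Of the 4 regions with the highest mean CPM, Mthfs_TES and Metrnl_TES ran past gene ends, Pid1_TSS covers a gene start and Mir133a-2_TES covers whole genes. Mthfs_TES, 80940 bases past the end of the gene of a folate-cycle enzyme (chr9:89135000-89215999), had 15935 counts in scrambled 1, 3469 in scrambled 2, 20104 with sh1137 and 4913 with sh830. Scrambled 1 was above sh830, so the groups overlapped; the log2 change was 0.44 ± 0.087 (adjusted p = 0.030), and it was -0.22 without scrambled 2 and -1.04 without sh1137. Metrnl_TES (chr11:121577500-121675499), which extends 96800 bases past the gene of the secreted protein meteorin-like, had 3931 and 1909 counts against 12145 and 5996. Its groups did not overlap, and the log2 change was 1.66 ± 0.094 with -0.26 in the Metrnl exons. Of the abundant regions with an adjusted p over 0.5, Parvg_TES had 1257 and 272 counts against 2044 and 205, AI607873_TSS 672 and 531 against 802 and 369, and Ms4a6c_TES 283 and 389 against 380 and 181. Their log2 changes were 0.24 ± 0.31, -0.10 ± 0.25 and -0.31 ± 0.43, and in each the groups overlapped.

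For 14 genes a tested region covered the start and another the end. The region over the start had the larger change in 11 and that over the end in 3; both rose in 5, only the start in 4, only the end in 2 and neither in 3. The medians were 1.44 over starts and 0.95 over ends. Xdh, the gene of xanthine dehydrogenase, had 78 and 51 counts over its start in scrambled 1 and 2 against 1152 and 379 with sh1137 and sh830 (3.45 ± 0.33), and over its end 135 and 47 against 260 and 84 (0.93 ± 0.27, adjusted p = 0.075). Fcgr2b had 6.12 ± 0.22 over its start and 2.10 ± 0.22 over its end. Cd47, the gene of the "do not eat me" surface signal, went the other way: 148 and 103 against 201 and 163 over the start (0.57 ± 0.24, not passed), and 1047 and 309 against 3778 and 1669 over the end (2.15 ± 0.13). Gm5544, whose own exons lie wholly inside regions, had 1.29 ± 0.18 over its start and 3.23 ± 0.36 over its end. The differences between the ends of a gene were not tested.

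**Figure D4:**
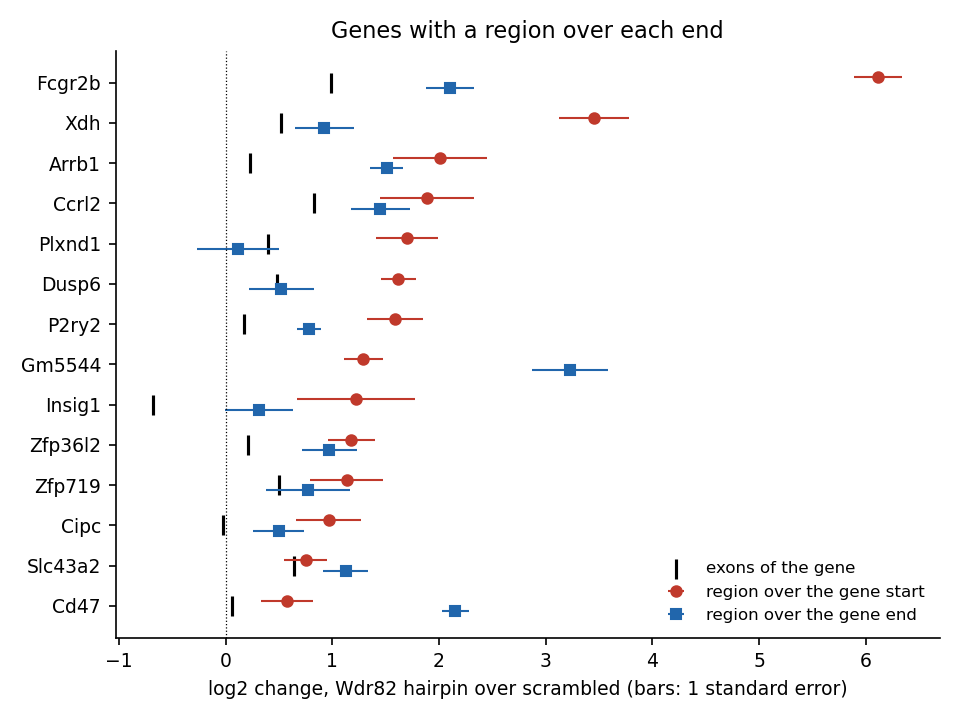
Log2 change, Wdr82 hairpin over scrambled (horizontal; bars 1 SE), of the regions over the start (circles) and end (squares) of 14 genes, with the change of the gene's exons (ticks; none for Gm5544). Fcgr2b reaches 6.12 over its start and 2.10 over its end, and Cd47 has 0.57 and 2.15.

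The genes under the regions changed less than the regions at the median. Of 372 tested regions with a tested host gene, the exons of the host rose for 63 and fell for 25, with a median log2 change of 0.12; over all 13884 genes tested 6.06% rose and 7.79% fell. Among the 214 regions that rose, the host exons rose for 43, fell for 18, did not pass for 118 and were not tested for 35. The hosts that fell under a risen region included Stab1, a scavenger receptor (region 1.74, exons -1.17), Lsp1, a leukocyte cytoskeletal protein (1.42 and -1.08), Siglec1, the sialoadhesin of macrophages (3.53 and -0.43), and Lgals1, galectin-1 (1.81 and -0.72). These 4 were picked after their values were seen. Siglec1 had 33275 and 12282 exon counts in scrambled 1 and 2 against 21813 and 10015 with sh1137 and sh830. Lgals1 had 24036 and 58651 against 13195 and 38225, so in both genes the groups overlapped. Host introns rose for 67 of 362 regions and fell for 12, with a median of 0.21; over all 12405 genes with tested introns 5.97% rose and 3.93% fell.

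Each region was also compared with its host in 1 model over both kinds of count. Against the host introns, 149 of 362 regions changed by more (41.2%) and 5 by less (1.38%), with a median log2 difference of 0.76. Regions over a start were higher in 101 of 164 (median 1.20) and over an end in 38 of 172 (median 0.52). The model held a term that let the intron share act differently on regions and introns, and without it 9 regions were higher; without that term and without 1 library, 3 to 34 were (34 without sh830). Against the host exons, 140 of 370 changed by more (37.8%) and 2 by less (0.541%), with a median of 0.87. Without the same kind of term 0 were higher and 0 lower than the exons by edgeR, with 69 and 1 at an unadjusted p under 0.05 and the median at 0.87. Introns were counted separately. Whether reads of an intron stretch inside a region were counted for both was not established, so such pairs may share reads.

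The largest differences from host introns were 4.72 ± 0.36 for Fcgr2b_TSS and 4.39 ± 0.35 for Mpeg1_TSS. At Asgr2, Cd300c and Ccr3, by contrast, gene and region rose side by side: the region differed from the host introns by -0.18 ± 0.76, 0.32 ± 0.65 and 0.34 ± 0.40, none of which passed. Ccr3, an eotaxin receptor, was at 0.51 and 0.70 CPM over its exons in the scrambled libraries and at 17.8 and 11.2 with the hairpins, and Ccr3_TSS had 76 and 31 counts against 1235 and 419 (3.94 ± 0.21). The regions furthest below their host introns were E230016K23Rik_TES and E230016K23Rik_TSS. Their host introns had 0 CPM in both scrambled libraries and 1.33 and 4.07 with the hairpins, so the fitted differences of -6.58 and -5.44 depend on the prior and bound nothing.

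**Figure D5:**
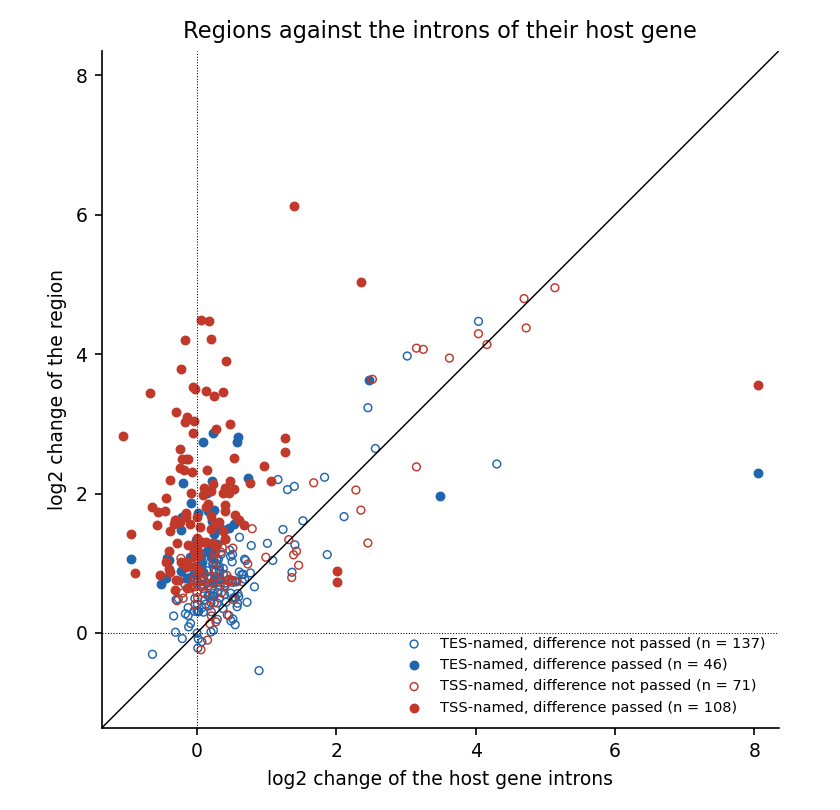
Log2 change of each region (vertical) against that of the introns of its host gene (horizontal) for 362 pairs; the solid line marks equal change and filled points passed the test of the difference. Filled points lie mostly above the line at intron changes near 0; the pair at an intron change of 8.05 has no scrambled intron counts.

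Where a region covers a whole gene, the exons of that gene had no counts, and those of the region come from its bases outside annotated exons. Of 14, all tested, 9 rose. Pf4_TSS (chr5:91199500-91203999), over the gene of platelet factor 4, had 854 and 876 scrambled counts against 2474 and 2261 hairpin counts, or 21.4 ± 0.77 against 59.8 ± 8.80 CPM (SD, n = 2 each; log2 change 1.47 ± 0.13, adjusted p = 0.0064), and the groups did not overlap. The exons of Pf4 itself were listed at 0 in all libraries. Ifitm6_TES, over Ifitm6 and Ifitm3, which encode interferon-induced transmembrane proteins, had 2480 and 3329 against 2472 and 3820 (0.12 ± 0.082, not passed). Hist2h3b_TSS, over H3c13, one of several near-identical histone genes between which reads may be shared, had 560 and 1284 against 655 and 842 (-0.18 ± 0.25), and Usp35_TSS rose by 0.78 ± 0.16.

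Of the covered genes 5 encode microRNAs, in 4 regions that rose. The 83000-base Mir133a-2_TES (chr2:180108000-180190999), over Mir133a-2 and Mir1a-1, had 2102 and 591 scrambled counts against 27586 for sh1137 and 6133 for sh830 (3.58 ± 0.16, adjusted p = 0.0020); scrambled 1 and sh1137, which share a high intron share, were each the higher of their group. Mir202_TSS had 484 and 212 against 2297 and 690 (2.02 ± 0.20), Mir3089_TSS_2 51 and 36 against 234 and 128 (2.04 ± 0.32), and Mir101a_TSS 601 and 352 against 980 and 513 (0.65 ± 0.15). The counts are of long RNA around the hairpins and do not measure the mature microRNAs, of which those of Mir101a, Mir202 and Mir3089 are given to identify the loci (RefSeq, GRCm38.p6; capitals mark the seed, bases 2 to 8, and no seed is shared).
miR-101a-5p (chr4:101346993-101347014, minus strand): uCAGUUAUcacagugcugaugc
miR-101a-3p (chr4:101346957-101346977, minus strand): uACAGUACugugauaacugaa
miR-202-5p (chr7:139957732-139957752, minus strand): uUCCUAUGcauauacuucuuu
miR-202-3p (chr7:139957695-139957716, minus strand): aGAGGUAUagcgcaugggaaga
miR-3089-5p (chr2:30721222-30721243, plus strand): uGAGUUCAgggacagcgugucu
miR-3089-3p (chr2:30721259-30721281, plus strand): aGCAUCUGcugauccugagcugu

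Regions with a gene of a pathway list were read by count, beside the 50.0% of all tested regions over genes that rose and the 9.53% of all features; the lists were drawn up with earlier results of these data known. The numbers are small, and no list was tested against the other regions. For the chemokines and their receptors 9 of 11 regions rose (median log2 change 1.47; 8 of 9 without those on joined spans only), including Ccrl2_TSS and Ccrl2_TES, at 1.89 ± 0.44 and 1.45 ± 0.28 over a decoy receptor gene, and Cxcr4_TES, at 1.29 ± 0.25. Of the 22 tested genes of that list 8 rose and 6 fell, against 6.06% and 7.79% of all genes. For Fc receptors 4 of 5 regions rose, and Fcgr3_TES, with 179 and 142 counts against 211 and 227, did not pass. For CD300 and SLAM receptors 6 of 8 rose (5 of 7 without Cd300a_TES, on a joined span only): Cd300a_TSS had 7 and 13 counts against 107 and 110 (3.46 ± 0.46) and Cd300ld_TSS 230 and 113 against 639 and 312 (1.5 ± 0.19), while Cd244_TSS and Ly9_TES did not pass. For C-type lectins and scavenger receptors 3 of 3 rose, among them Clec4d_TSS, with 257 and 202 counts against 1809 and 893 (2.51 ± 0.23), over the start of a mycobacterial glycolipid receptor gene.

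For the immediate early and myeloid transcription factors 4 of 5 regions rose. Atf3_TSS_2 lies inside the span of the stress factor gene Atf3 and had 43 and 36 counts against 219 and 142 (2.19 ± 0.32), while the Atf3 exons fell by 0.35 (adjusted p = 0.048). Those exons were at 154 and 397 CPM in the scrambled libraries and at 119 and 314 with the hairpins, so the groups overlapped. Bhlhe40_TSS had 108 and 111 counts against 614 and 334 (2.07 ± 0.32). For the Toll-like receptor and NF-kB list 1 of 4 rose, Tlr2_TSS, with 12 and 18 counts against 136 and 102 (2.99 ± 0.45), over the start of the lipopeptide receptor gene. Tlr7_TES, past the end of the receptor gene for single-stranded RNA, had 1079 and 1165 against 1307 and 1541 (0.36 ± 0.098, adjusted p = 0.062). Icam1_TSS, over an adhesion molecule gene, had 121 and 69 against 270 and 172 (1.26 ± 0.25).

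For lipid handling 3 of 7 tested regions rose, among them Lrp1_TSS, over a large endocytic receptor gene, with 579 and 248 counts against 2264 and 761 (1.83 ± 0.17), and Fabp5_TES, past a fatty acid-binding protein gene, with 52 and 80 against 318 and 280 (2.22 ± 0.33). For lysosome and protease genes 0 of 3 passed in edgeR, with 3 higher at an unadjusted p under 0.05 and 1 passing in DESeq2 with the same terms: Ctsk_TSS had 68 and 10 counts against 137 and 69 (1.76 ± 0.48, adjusted p = 0.062), Hexa_TSS 249 and 207 against 644 and 313 (1.01 ± 0.28, adjusted p = 0.063) and Plau_TSS 103 and 93 against 334 and 140 (1.18 ± 0.38, adjusted p = 0.090). No region overlapped a gene of the Wdr82 complexes, the termination factors or the RNA exosome. Of the 15, 23 and 17 genes of these lists 2, 1 and 0 rose and 2, 4 and 2 fell. No gene of the interferon-stimulated list, which does not hold Ifitm3, carried a region either, and 12 of its 25 genes fell, against 7.79% of all genes.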

How the data were processed

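Ribosomal RNA-depleted, strand-marked total RNA of untreated bone marrow-derived macrophages was measured in 2 scrambled and 2 Wdr82 hairpin libraries. The authors deposited raw read counts over gene exons and non-gene regions and, in separate tables, over gene introns; the unit was read from the values. Per the submitters' processing notes the build was mm9 and the tools were SICER, TopHat (1.3.1), Cuffdiff and Cufflinks (both 2.1.1). The counting tool and its use of strand are not given in the sources used here. The deposited annotation also holds other values, the mm9 coordinates of genes and regions.

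Regions were matched to gene spans by coordinates and 21615 of 21761 genes to symbols by identifier. Counts were fitted with edgeR 4.0.16 (R 4.3.3): library sizes from gene exon counts, TMM factors from genes, filterByExpr, a group term and a term for the intron-share split, quasi-likelihood tests and Benjamini-Hochberg adjustment over all 14954 features, threshold 0.05. Values are log2 changes ± SE. Regions and hosts with at least 10 counts in 2 libraries were compared by the interaction of group and feature type. DESeq2 1.42.0 and other settings served as alternatives. Scripts were tested on simulated data. Library totals allow shares to be read to well under 0.01 percentage points, counting error only.

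The regions, gene lists and naming rule were chosen with earlier results of these data known. Among tested regions outside chromosome 18 the rule took, of those that passed with a mean of at least 1 CPM and groups apart, the 8 largest rises and up to 3 falls for each name end; the 4 smallest p; the 4 highest mean CPM, overall and with an adjusted p over 0.5; the 3 largest differences each way from host introns; every region of a gene with 4 or more (there was none); the 2 smallest p of each list; and up to 6 promoters. Other regions named were chosen after their values were seen. Some regions that the rule took are not reported here. The sequences of the regions in mm9 are not used here.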

Additional observations from a re-analysis of the deposited data

How the results depend on the processing

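The rises rest on the term for intron share. With the group term alone 0 regions passed in edgeR (0 TSS-named, 0 TES-named, 0 over a start and 0 over an end), and in DESeq2 88 did (64, 24, 53 and 13). With the crossed split (scrambled 1 with sh830), chosen after seeing the data, 28 passed (23, 5, 20 and 3), and the cause was not tested. Leaving out 1 library at a time with the group term alone gave 8 to 111 rises (7 to 66, 1 to 45, 7 to 57 and 1 to 31) and medians of 0.53 to 1.63. Among regions that touch no exon 17 rose (8 TSS-named, 9 TES-named), since only 32 of them were tested; no region over a start or end is without an exon. DESeq2 with both terms, its size factors, TMM over all features and other filters gave 178 to 227 rises. Differences from host introns numbered 9 without the type-by-split term and 3 to 34 without it and 1 library; differences from host exons numbered 140 with that term and 0 without it. The share difference was 0.135 to 0.836 percentage points with 1 library left out and 0.298 with introns in the total.

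Of the 44 regions taken by the naming rule, 5 changed sign. The largest rises among the 44 were taken only with both hairpin libraries above both scrambled ones. Leaving out 1 library could therefore hardly reverse them, and their unchanged sign says little of stability. With 1 library left out, Mthfs_TES ranged from -1.04 to 1.90, Parvg_TES from -1.96 to 2.11, Hist2h3b_TSS from -0.79 to 0.48, AI607873_TSS from -0.77 to 0.54 and Ms4a6c_TES from -0.97 to 0.29. AI607873_TSS was at 0.018 with the group term alone in either tool. No paired analysis was possible because the hairpin libraries carry no replicate number; the split term, which sets scrambled 1 with sh1137 and scrambled 2 with sh830, comes from intron shares and not from the labels. With 2 libraries a group, the exact test of a share cannot go below 0.333, and regions with few counts are limited by depth.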
